A study of Xenopus laevis with 12 samples.

Results

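The IDs described here had a much higher mean count in rhombomere 1 of Xenopus laevis tadpoles that received a morpholino against barhl1 than in tadpoles that received a control morpholino. They were chosen by level: the mean CPM (counts divided by the library total and multiplied by 1000000) over the 8 barhl1 morpholino libraries had to be at least 0.5 and at least 4 times the mean over the 4 control libraries. Of 44478 gene IDs, 25440 reached the 0.5 CPM minimum and 156 met both conditions, which is 0.613% of the 25440. In the other direction, 21 IDs had a control mean of at least 0.5 CPM and 4 times the morpholino mean. Since the members were chosen on the difference between morpholino and control libraries, that difference is a description here and no result. How the members vary among the morpholino libraries is the main subject below. The choice used only the mean of these libraries, but a few high libraries can lift a mean. It therefore favours members that vary among them, and their variation is not free of the choice.

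The RNA came from dissected rhombomere 1 at stage 41 per the labels. The 3 groups held 4 libraries each: tadpoles injected with the control morpholino (Ct), with MOBarHl1_1 (MO1 here) or with MOBarHl1_2 (MO2 here). The labels give the same tissue, stage and genotype entry (Xenla9.2) for all groups, and no dose. The design text gives injection into the 2 dorsal blastomeres at the 4-cell stage, and 3 rhombomeres per replicate. It also states stage 42 and 3 replicates per condition, which differs from the labels. The labels do not say which libraries came from separate embryos, so p-values measure only the spread between these libraries, which may be technical.

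Rhombomere 1 is the hindbrain segment that forms the cerebellum, and its upper rhombic lip holds progenitors that express the proneural factor Atoh1 and give rise to granule cell neurons. Barhl1 is a homeodomain transcription factor that is a direct target of Atoh1 that inhibits transcription driven by T-cell factors. A morpholino is a synthetic antisense molecule that interferes with the translation or splicing of its target RNA and leaves the gene in place.

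None of the 156 members could be given a gene name. All carry identifiers that start with XBXL10_1g, and 0 of them matched the RefSeq table of assembly Xenopus_laevis_v10.1. Markers of the labelled tissue or of neighbouring tissues, barhl1 itself and T-cell factor targets could therefore not be looked up, no sequence is shown, and the share of the members that belongs to any tissue was not tested. At most 2 IDs are printed, and other members are identified by their rank in mean CPM over the morpholino libraries. In such bulk samples, more cells of a type and more RNA per cell cannot be told apart.

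Library totals ran from 23278184 to 29433422 counts, so that 1 count was worth 0.0340 to 0.0430 CPM. Libraries differed within groups before any member was considered. The 10 most abundant IDs took 4.28% of counts in control replicate 1 and 3.70% to 3.97% in the other controls, and 4.75% and 4.67% in MO2 replicates 3 and 4 against 3.90% to 4.35% in the other MO2 libraries. Control replicate 1 and MO2 replicate 1 had the smallest count difference of any 2 libraries, at a chi-square of 4.22 per degree of freedom, below the 6.22 of the closest pair within a group. The next closest to control replicate 1 were MO1 replicate 2 at 4.97 and MO2 replicate 2 at 7.93, and its closest control was at 11.5. MO1 replicate 3 was closest to control replicates 2 and 4, at 9.08 and 10.6, and its closest MO1 library was at 14.1. Its 10 most abundant IDs held a 3.92% share, where MO1 replicates 1, 2 and 4 had 4.37%, 4.41% and 4.45%. Whether the label of control replicate 1 or of MO1 replicate 3 is right could not be settled. A wrong label on the first would change every control mean and ratio below. On MO1 replicate 3 it would change every MO1 mean and every mean over the morpholino libraries. The number of members was 199 without control replicate 1, of which 153 were among the 156. Without control replicate 1 and MO1 replicate 3 together it was 216, of which 154 were among the 156. Without MO2 replicates 3 and 4 it was 139. Both settings were chosen after seeing the data. The edgeR test of both morpholinos against the control is also given without control replicate 1. The MO1 against MO2 test is also given without MO2 replicate 3 and without MO2 replicate 4, each alone. The median correlation is also given without both of these, and for IDs chosen without control replicate 1. Tests of 1 morpholino against the control, and those with DESeq2, limma-voom or no filter, are given with all libraries only. Apart from the 216 above, MO1 replicate 3 was left out only among the settings that leave out 1 library. Other values are given with all libraries unless a setting is named.

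Most members were low in level. Their mean over the morpholino libraries ran from 0.507 to 183 CPM with a median of 1.55 CPM, and the median control mean was 0.140 CPM. In 118 of the 156 a count was present in all 8 morpholino libraries, and 10 had no count in any control. The members just inside the fold condition had ratios of 4.08, 4.12 and 4.14, and the IDs just outside had 3.89, 3.90 and 3.91. At the level condition, members at 0.507, 0.511 and 0.515 CPM were inside and IDs at 0.482, 0.484 and 0.497 CPM outside.

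**Figure D1:**
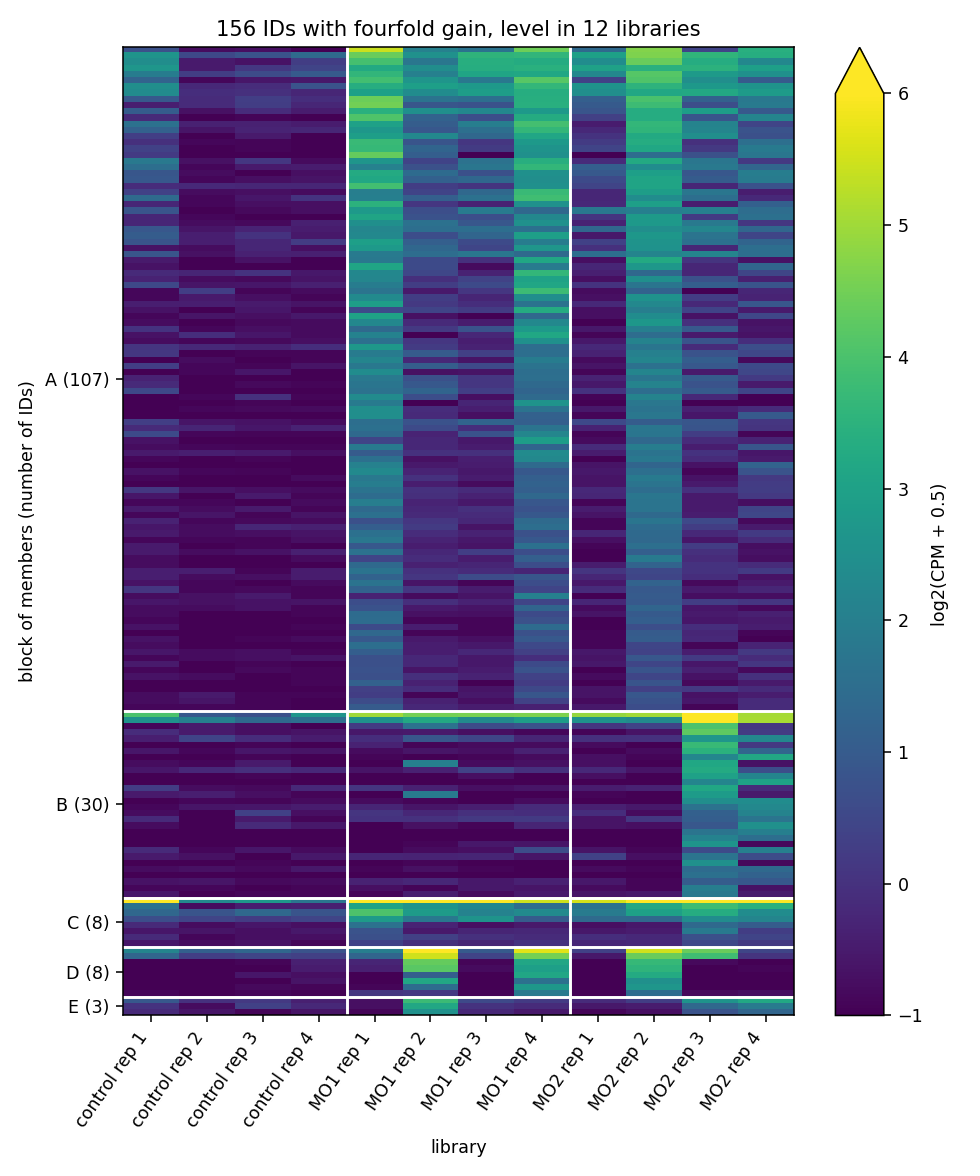
Level of each of the 156 members (rows, sorted by block and mean level) in each of the 12 libraries (columns), as log2(CPM + 0.5), with levels above the colour scale drawn in its last colour. The members fall into blocks that are high in different morpholino libraries: 107 in block A, 30 in block B, 8 each in blocks C and D and 3 in block E.

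The member with the highest mean, XBXL10_1g26482, was at 105, 4.39, 6.10 and 2.86 CPM in control replicates 1 to 4. It was at 236, 139, 115 and 44.0 CPM in the MO1 libraries and at 46.4, 354, 219 and 313 CPM in the MO2 libraries. Control replicate 1 lay above MO1 replicate 4 and MO2 replicate 1, so the groups overlapped, although the other 3 controls were all below every morpholino library. The control mean was 29.5 ± 50.2 CPM, the MO1 mean 134 ± 79.4 CPM and the MO2 mean 233 ± 137 CPM (SD over 4 libraries each). The edgeR log2 fold change of both morpholinos against the control was 2.60 (SE 1.12, adjusted p = 0.225), and without control replicate 1 it was 5.33 (SE 0.91, edgeR adjusted p = 0.0198). The edgeR adjusted p was 0.409 to 0.476 without 1 of the other controls and 0.212 to 0.314 without 1 morpholino library. The member was chosen on this contrast, so nothing is read from these values.

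The second printed member, XBXL10_1g487, had the highest median level after the first. It was at 15.8, 1.40, 1.12 and 5.83 CPM in the controls, at 31.5, 22.6, 23.8 and 24.5 CPM with MO1 and at 29.4, 32.0, 64.2 and 32.7 CPM with MO2. No control reached the lowest morpholino library, and MO2 replicate 3 was the highest. Its group means were 6.04 ± 6.86, 25.6 ± 4.03 and 39.6 ± 16.5 CPM (SD, n = 4 each). The edgeR log2 fold change against the control was 2.44 (SE 0.65, adjusted p = 0.119), and 3.55 (SE 0.55, edgeR adjusted p = 0.0153) without control replicate 1. The edgeR adjusted p was 0.293 to 0.381 without 1 of the other controls and 0.086 to 0.19 without 1 morpholino library. Nothing is read from these values either. Between the morpholinos, XBXL10_1g487 differed by -0.64 (MO1 minus MO2, log2, SE 0.64, edgeR adjusted p = 0.833) and XBXL10_1g26482 by -0.81 (SE 1.12, edgeR adjusted p = 0.888). The fit behind these SEs also takes in the spread of the controls. With only the MO1 and MO2 libraries in the fit, XBXL10_1g487 differed by -0.65 (SE 0.27, edgeR unadjusted p = 0.0433, adjusted p = 0.82). XBXL10_1g26482 then differed by -0.82 (SE 0.73, edgeR unadjusted p = 0.304, adjusted p = 0.861). The choice used the mean of both morpholinos and not their difference, but an ID high with only 1 of them could enter.

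**Figure D2:**
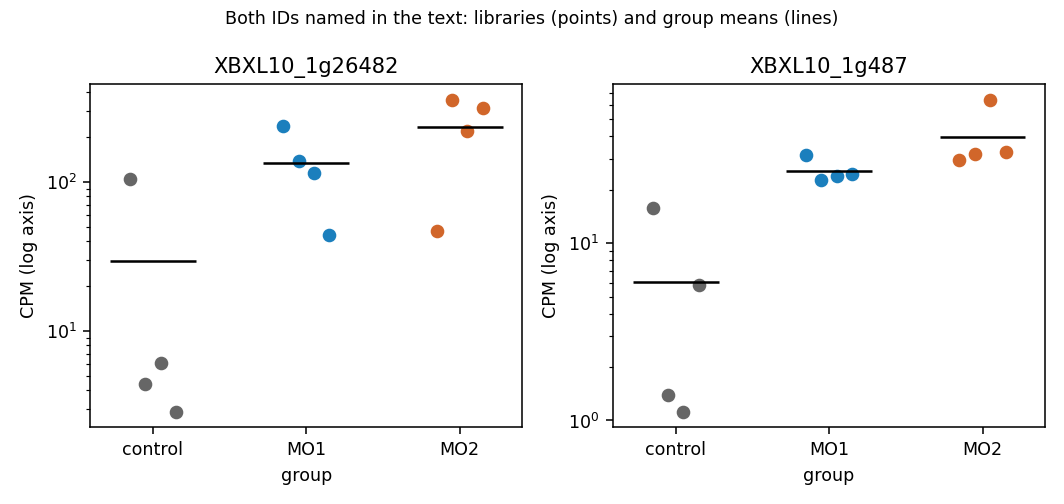
CPM on a log axis of XBXL10_1g26482 (left) and XBXL10_1g487 (right) in each library (points, replicates 1 to 4 from left to right within a group), with group means as lines. For the first, control replicate 1 at 105 CPM sits among the morpholino libraries, and for the second all 8 morpholino libraries sit above all 4 controls.

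Such separation of all libraries was the exception among the members. In 31 of the 156 the groups did not overlap, with each of the 8 morpholino libraries above each of the 4 controls, where 0.998% of the 25440 IDs did so, and the choice of members favours it. The members varied far more among the morpholino libraries than other IDs. Their median coefficient of variation over the 8 libraries was 112%, against 12.8% over the 25440 IDs. The highest library held a median of 38.1% of a member's summed CPM, against 14.9%, and it held more than 50% in 32 of the 156 members (22 of them in block B, described below), where 0.267% of the 25440 IDs had such a library. A mean of 8 libraries can be lifted by 1 of them, so the choice favours members of this kind. With each member's own highest library dropped, 116 of the 156 were still at 4 times the control mean, and with the highest 2 dropped 93 were.

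The libraries also differed in the level of the members as a whole. The median over the 156 was 2.51 CPM in MO1 replicate 1, 2.18 CPM in MO1 replicate 4, 2.61 CPM in MO2 replicate 2 and 1.14 CPM in MO2 replicate 3. It was 0.696 CPM in MO2 replicate 4, 0.548 CPM in MO1 replicate 2, 0.328 CPM in MO1 replicate 3 and 0.186 CPM in MO2 replicate 1. The controls were at 0.215, 0.0410, 0.105 and 0.0752 CPM, so control replicate 1 lay above MO2 replicate 1. Both morpholino groups thus held libraries with high and with low levels of the members.

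To read the gain in libraries that had no part in the choice, the same conditions were applied to 11 libraries at a time and the chosen IDs were read in the library left out. Chosen without MO2 replicate 2, 151 IDs qualified and 109 of them (72.2%) were at 4 times the control mean in that library. The share was 69.8% for MO1 replicate 1, 72.8% for MO1 replicate 4, 57.2% for MO2 replicate 3 and 50.0% for MO2 replicate 4. It was lower for the remaining morpholino libraries, at 44.0% for MO1 replicate 2, 34.5% for MO1 replicate 3 and 14.7% for MO2 replicate 1, where 26 of 177 IDs qualified. Over all IDs at the level minimum, 0.114% to 0.730% were at 4 times the control mean in these libraries. The controls used in the choice are the same that set the 4-fold level, which raises these shares.

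For a control left out, the share was that of chosen IDs whose morpholino mean was at least 4 times the level in that control. It was 90.7%, 77.8% and 90.1% for control replicates 2, 3 and 4. For control replicate 1 it was 50.8%, or 101 of 199 IDs. Over all IDs at the level minimum the shares were 1.24%, 0.943% and 1.18% for control replicates 2 to 4 and 0.684% for control replicate 1. The morpholino mean is the same that chose the IDs, which raises these shares among the chosen. In control replicate 1 the chosen IDs stood at a median of 2.90 times their mean in the other controls. In control replicates 2 to 4 that ratio was 0.363 to 0.754. So control replicate 1 was the control in which the gain was least often read at this level.

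**Figure D3:**
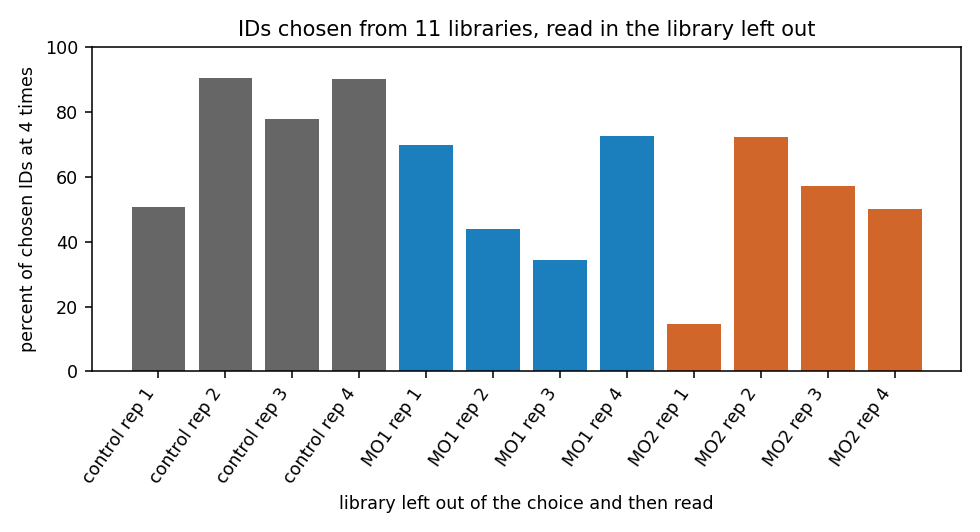
Percent of IDs chosen from 11 libraries that were at the 4-fold level in the library left out: for a morpholino library, at least 4 times the control mean, and for a control, a morpholino mean at least 4 times that control. The bars run from 14.7% for MO2 replicate 1 to 90.7% for control replicate 2.

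The members varied together more than other IDs did, and in more than 1 order of the morpholino libraries. For each pair of members, the Pearson correlation of log2(CPM + 0.5) was taken over the 8 libraries. The median over pairs was 0.528, against 0.00440 over all pairs of the 25440 IDs, and 37.7% of pairs were above 0.7, against 4.76%. The correlation was negative in 30.8% of the pairs of members, against 49.6% over all IDs. All pairs share the same 8 libraries and their depths, and pairs are not independent, so these values are a description. The choice also favours members that are high in few libraries. Members were lower in level than the 25440 IDs, at a median of 1.55 CPM against 14.4 CPM, and were not matched to them in level. The first principal component of the standardised members held 58.3% of their variance and the second 17.5%. Over the 25440 IDs these were 29.4% and 18.4%, and 7 equal axes would hold 14.3% each.

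**Figure D4:**
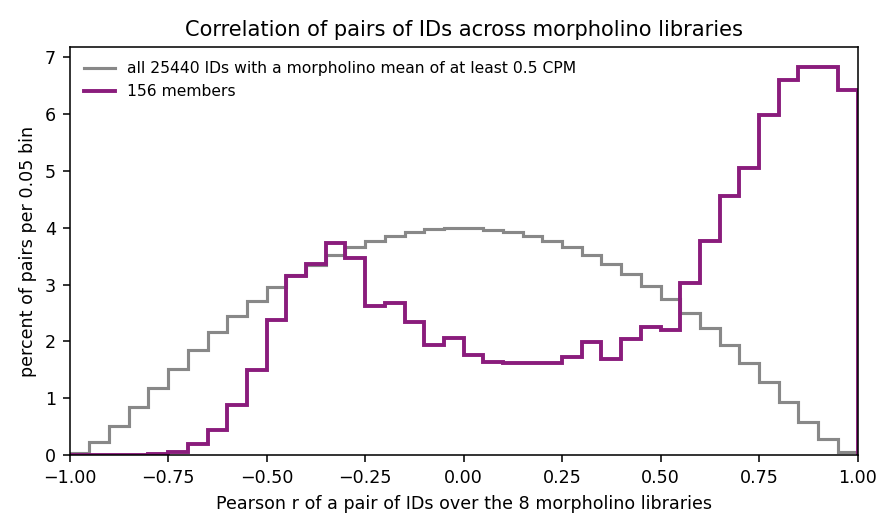
Distribution of the Pearson correlation of pairs of IDs over the 8 morpholino libraries (percent of pairs per 0.05 bin), for the 156 members and for all 25440 IDs at the level minimum. The members have a main peak near 0.9 and a smaller one below 0, where 30.8% of their pairs lie, while all IDs are centred on 0, with 49.6% of pairs below it.

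With the means of MO1 and MO2 removed, the median correlation of the members was 0.533, with 28.1% of pairs negative against 49.7% over all IDs. Without MO2 replicates 3 and 4, an alternative chosen after seeing the data, the median was 0.617 over the 152 members that vary in the other 6 libraries, with 21.9% of pairs negative against 49.8% over all IDs. For the 199 IDs chosen without control replicate 1, also added later, it was 0.458, with 28.2% of pairs negative against 49.6%.

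Grouping the members by average linkage, with joining stopped at a mean correlation of 0.5, gave 5 blocks. Block A held 107 members (68.6%), block B 30 (19.2%), blocks C and D 8 each and block E 3. The blocks were formed on these same values, so the differences between them are no test. The libraries called high in a block were named after the blocks were seen. Counts of members in which these libraries lie above all others are thus favoured by the grouping. The share over all IDs was not taken for them, and nothing is read from them. Joining down to a mean correlation of 0.3 left 2 blocks of 115 and 41, and stopping at 0.7 left 13, of which the largest held 94, so at none of these settings did the members form 1 block. Among the 199 IDs chosen without control replicate 1 there were 9 blocks at 0.5.

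Block A was marked by high levels in MO1 replicate 1, MO1 replicate 4 and MO2 replicate 2, and so cut across both morpholinos. Its median member was at 3.19, 2.68 and 2.91 CPM in these libraries. In the other 5 morpholino libraries it was at 0.587 and 0.401 CPM (MO1 replicates 2 and 3) and at 0.186, 0.511 and 0.612 CPM (MO2 replicates 1, 3 and 4). In the controls it was at 0.215, 0.0410, 0.0697 and 0.0752 CPM, so MO2 replicate 1 did not exceed control replicate 1. For 94 of the 107, the lowest of the 3 high libraries lay above all 9 others, which the grouping favours. The depths of these 3 libraries, 24973125 to 26930780 counts, lay within the range of the rest.

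The pattern of block A can be seen in its highest member, the fifth of all. It was at 1.16, 0.0821, 0.105 and 0 CPM in the controls, at 42.9, 3.68, 2.66 and 21.5 CPM with MO1 and at 2.12, 25.6, 0.817 and 10.2 CPM with MO2. MO2 replicate 3 lay below control replicate 1 here, and the other 7 morpholino libraries lay above every control. Other members of block A were more even. The one ranked 13 was at 7.35, 4.77, 6.96 and 9.85 CPM with MO1 and at 5.02, 8.65, 8.89 and 6.63 CPM with MO2, against 4.68 CPM in control replicate 1 and 0.339 to 0.488 CPM in the other controls. For this member control replicate 1 sat just under the lowest morpholino library. Members of block A correlated with the mean of the rest of the block at a median of 0.907 and a lowest value of 0.302.

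Control replicate 1, which took no part in forming the blocks, was above the other 3 controls in 73 of the 107 members of block A (68.2%). In block B this was so for 9 of 30 (30.0%), close to the 31.3% of the 25440 IDs. In blocks C, D and E it was so for 6 of 8, 3 of 8 and 2 of 3. The control levels entered the choice of members, so these shares describe the blocks and were not tested.

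Block B was high in MO2 replicates 3 and 4. Its median member was at 4.56 and 2.07 CPM there, and at 0.0378 to 0.160 CPM in the other 6 morpholino libraries, while the controls were at 0.0410 to 0.0859 CPM. MO2 replicate 2 was the lowest of all 12 libraries, and 4 of these 6 lay above the highest control. For 22 of the 30, MO2 replicates 3 and 4 both lay above all 10 others, which the grouping favours here too. In 22 of the 30 a single library held more than 50% of the morpholino sum. In 4 members counts were present in MO2 replicates 3 and 4 and in no other, and the share over all IDs was not taken. The highest of these was at 4.09 CPM in MO2 replicate 3 and 7.68 CPM in MO2 replicate 4, while a count of 0 in each of the other 10 libraries allows at most 0.129 CPM (3 counts, counting error only). The other 3 were at 2.52 to 3.81 CPM in MO2 replicate 3 and 1.80 to 3.53 CPM in MO2 replicate 4.

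Some members of block B were high mainly in MO2 replicate 3. The one ranked 50 was at 18.7 CPM there, at 0.646 CPM in MO2 replicate 4, and at 0.0372 to 0.196 CPM in the other morpholino libraries, below the 0.430 CPM of control replicate 1. Without MO2 replicate 3 it does not meet the conditions. XBXL10_1g487 also fell in block B, with MO2 replicate 3 as its highest library. Its other 7 morpholino libraries, at 22.6 CPM or more, were above every control too, of which control replicate 1 was the nearest at 15.8 CPM. In all, 2 members of block B had every morpholino library above every control.

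Pairs between blocks A and B had a median correlation of -0.278 over the 8 libraries, and 88.2% of the 3210 pairs were negative. Block A and block E were opposed as well, with a median of -0.432, while blocks A and D had a median of 0.456. Block B was nearest to block C, with a median of 0.513 and 1.67% of pairs negative. With block E it had a median of 0.439 and 0% negative.

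Block D was high in MO1 replicate 2, MO1 replicate 4 and MO2 replicate 2, at a median of 13.3, 7.77 and 10.2 CPM. In the other morpholino libraries its median was between 0 and 0.297 CPM, and in the controls between 0 and 0.188 CPM. The highest 2 of its members were also high in MO2 replicate 3, at 20.7 and 14.0 CPM. In all 8 members these 3 libraries lay above all 9 others, which the grouping favours. The member of rank 21 was at 19.9, 8.29 and 12.3 CPM in them, and at 0, 0, 0.0349 and 0.263 CPM in the controls. In the other morpholino libraries it was at 0.334 CPM or less. Block D shares MO1 replicate 4 and MO2 replicate 2 with block A but not MO1 replicate 1, where its median was 0.297 CPM.

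Block E, with 3 members, was highest in MO1 replicate 2, with a median of 8.60 CPM, followed by MO2 replicates 4 and 3 at 3.19 and 2.08 CPM. In the other 9 libraries its median was 0.111 to 0.628 CPM. Block C, with XBXL10_1g26482 and 7 others, was the most even, with a median coefficient of variation of 58.7% over the morpholino libraries against 103% in block A and 191% in block B. The median over its members was 1.02 to 4.68 CPM in the morpholino libraries, 0.730 CPM in control replicate 1 and 0.123 to 0.226 CPM in the other controls. These medians do not follow 1 member. In 3 of the 8 members every morpholino library lay above every control, where 0.998% of the 25440 IDs did so. The member ranked 115 had 3 morpholino libraries above every control.

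**Figure D5:**
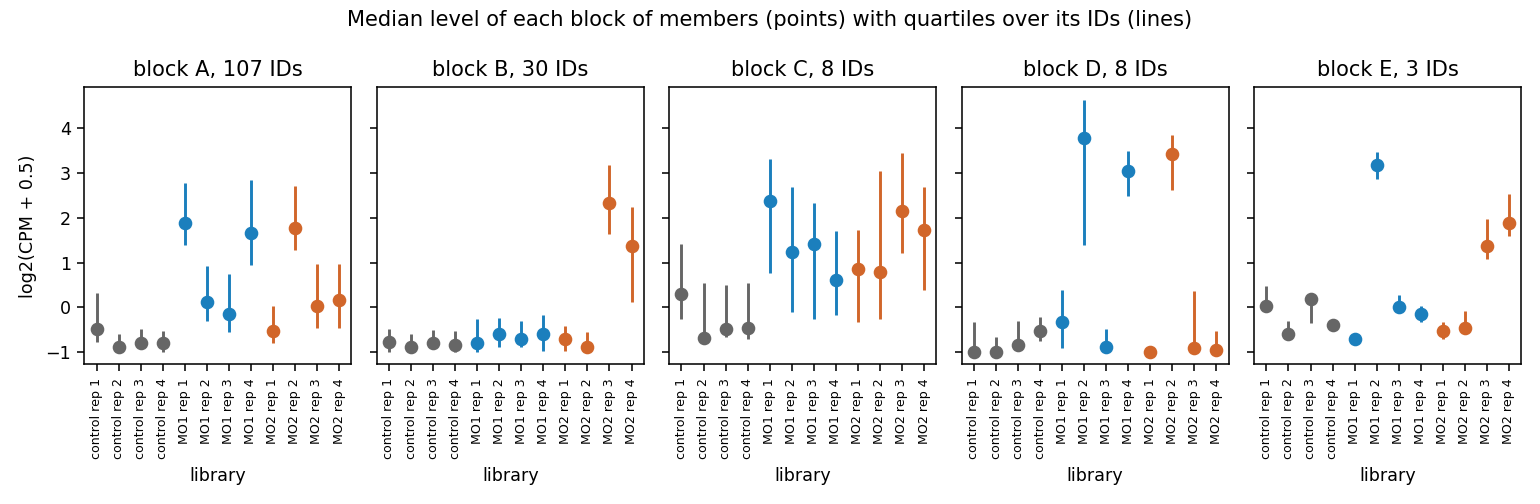
Median log2(CPM + 0.5) over the members of each block (points) in each of the 12 libraries, with lines from the lower to the upper quartile over members. Block A is high in MO1 replicates 1 and 4 and MO2 replicate 2, block B in MO2 replicates 3 and 4, block D in MO1 replicates 2 and 4 and MO2 replicate 2, and block E in MO1 replicate 2.

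The IDs outside the members were also set against the mean profiles of blocks A and B. For scale, 0.28% of all pairs of the 25440 IDs correlated between 0.9 and 0.95 and 0.054% above 0.95. A pair of IDs is another measure than an ID with a block mean, so this scale is rough. Within the blocks, 57 of the 107 members of block A and 14 of the 30 of block B correlated above 0.9 with the rest of their block. Of the 25284 other IDs at the level minimum, 44 (0.174%) correlated above 0.9 with the mean profile of block A, and 27 below -0.9. That share is below the share of pairs, so no excess of IDs with this profile is read from it. Of those 44, 37 had a higher mean with the morpholinos than in the control and 10 were at least 2-fold higher, with a median ratio of 1.23 and a median level of 4.84 CPM. With the profile of block B, 305 other IDs (1.21%) correlated above 0.9 and 322 below -0.9. More IDs were thus opposed to it than followed it. The 1.21% is above the share of pairs given for scale. At the negative end, 0.229% of pairs lay between -0.95 and -0.9 and 0.04% below -0.95, so that count is above the scale too. The profile of block B was thus not particular to its members. As the scale is rough, the size of any excess was not tested. The 305 had a median ratio of 1.15, with 31 at least 2-fold higher, and reached levels of 3978 CPM. The median ratio over all other IDs was 0.984.

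Among the members there were 7 pairs with consecutive ID numbers, and what consecutive numbers stand for is not given in the sources used here. Their correlations over the 8 morpholino libraries were 0.642 to 0.983 in 6 pairs, which all lay within block A, with a median over the 7 of 0.962. Any pair within block A had a median of 0.806. Over the 18434 consecutive pairs among the 25440 IDs the median was 0.0995. In the seventh pair, XBXL10_1g487 and the ID numbered before it had a correlation of -0.172. Reads shared by near-identical copies could be credited to both IDs of such a pair, which was not tested.

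Whether the members differed between the morpholinos was tested with edgeR over all 26712 IDs that passed the filter on low counts, of which 116 were members. Of these 116, 0 passed an adjusted p of 0.05 (edgeR quasi-likelihood test, smallest adjusted p 0.649), and 0 of the 26712 did (0% called). With DESeq2 0 members and 11 of 26698 IDs passed, and with limma-voom 0 members and 0 IDs. At an unadjusted p under 0.05 there were 6 members, 2 higher with MO1 and 4 higher with MO2. That is 5.17% of the members tested, near the 7.35% of all IDs tested. The filter removed members that were high in few libraries, so this share does not cover them. With no filter, 18 of 156 members had such a p (11.5%, all IDs 6.46%), and 0 passed an adjusted p of 0.05. Of these 18, 1 was higher with MO1 and 17 were higher with MO2. The choice took the mean over both morpholinos, so an ID high with only 1 of them could enter. That favours differences between them, and nothing is read from this share. With the filter, the count was 33 (27.3% of the members tested) without MO2 replicate 2, where 12.7% of all IDs had such a p. Of these 33, 24 were higher with MO1 and 9 with MO2. The library left out is the MO2 library in which block A was high, and its part in this count was not tested. Leaving out MO2 replicate 3 gave 1 member (0.752%, where all IDs had 4.63%) and MO2 replicate 4 gave 3 (2.27%, where all IDs had 3.76%). Leaving out MO1 replicate 2 gave 10 (7.52%), near the 6.61% of all IDs. A missed threshold does not show that both morpholinos act alike.

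Against the shared controls, 155 IDs met the conditions with MO1 alone and 175 with MO2 alone, and 96 with both. Both comparisons use the same controls, so the IDs they have in common are no independent support. Of the 156 members, 118 were at 4 times the control mean with each morpholino, 19 with MO1 only and 19 with MO2 only.

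In the contrast that chose the members, with both morpholinos averaged and set against the control, 0 of the 116 members tested passed an adjusted p of 0.05 (edgeR quasi-likelihood test, smallest adjusted p 0.0649), where 0.0337% of all IDs did (21.1% at an unadjusted p under 0.05). At an unadjusted p under 0.05, 102 were higher, where 11.1% of all IDs tested were, and nothing is read from this, as the members were chosen on this contrast. The median log2 difference of these 116 was 3.14, against -0.01 over all IDs tested. Without control replicate 1, 44 of 137 members passed, all higher, where 9.86% of all IDs passed and 5.06% passed as higher. Without MO2 replicate 1, 4 members passed, where 0.344% of all IDs did. Without MO1 replicate 3 and without MO1 replicate 4, 1 member passed, where 0.0667% and 0.0481% of all IDs did. DESeq2 called 75 of 113 members higher, where 5.31% of IDs were called and 3.00% called higher. It gave a p-value for these 113 of the 116 members, and none for XBXL10_1g487. XBXL10_1g26482 was not called (DESeq2 adjusted p = 0.0723). Against the control, MO1 alone gave 0 adjusted calls (0% of all IDs) and 101 members at an unadjusted p under 0.05, all higher, where 15.1% of all IDs had such a p and 7.71% had it as higher. MO2 alone gave 0 adjusted calls among the members (0.0112% of all IDs) and 90 at an unadjusted p under 0.05, all higher, where 20.6% of all IDs had such a p and 11.2% had it as higher.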

How the data were processed

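RNA was extracted with Trizol and made into stranded mRNA libraries, per the labels' protocols. The deposited files hold raw counts per gene ID, 1 library each, made by the authors with featureCounts 2.0.1 from trimmed reads, per the submitters' processing notes and the file headers. The genotype entry of the labels, Xenla9.2, is an assembly name, while the IDs start with XBXL10, and no source used here states which build and annotation were counted. Nor is the aligner or strand setting given, so reads of overlapping IDs or of homeologs may be credited to the wrong ID.

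CPM was the count divided by the library total. The members, lists and conditions were chosen with earlier results of these data known. Correlations used log2(CPM + 0.5), and blocks average linkage on 1 minus r (scipy 1.17.1). Tests used edgeR 4.0.16 (R 4.3.3) on the counts: filterByExpr, TMM, a robust quasi-likelihood fit of all 12 libraries with a term per group (9 residual degrees of freedom), and two-sided p-values with Benjamini-Hochberg adjustment over all 26712 IDs kept. The filter left out 40 members that reached its minimum count in too few libraries. The one ranked 21 was left out with 509, 207 and 326 counts in MO1 replicates 2 and 4 and MO2 replicate 2. SEs came from the fold change and the F statistic. The scripts were tested on simulated data. Within groups, pairs of libraries differed by a chi-square of 6.22 to 27.6 per degree of freedom, and none was treated as a duplicate. Alternatives were DESeq2 1.42.0, limma-voom (limma 3.58.1), other scalings, filters, pseudocounts, minimums, a replicate block and leaving out libraries. The printed IDs were those with the highest mean and the next highest median over the morpholino libraries.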

Additional observations from a re-analysis of the deposited data

Results flagged for a closer look

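Medians over members and blocks, summed levels and the 2 printed IDs were examined for a library that stood apart from its group. Of 27 sets of 4 libraries, 7 had one. For normally distributed values chance gives about 1 in 20, or 1.35, but unlogged CPM need not be so distributed. The sets share libraries, members were chosen on control and morpholino levels, and blocks were formed on the morpholino libraries. These favour such distances, so the 7 are no count beyond chance. Control replicate 1 lay far above the other controls in the summed level of the members without XBXL10_1g26482 (117 CPM), in XBXL10_1g26482 itself (105 CPM) and in the median of block C (0.730 CPM). MO2 replicate 2 lay far above the other MO2 libraries in the median of block A (2.91 CPM) and of block D (10.2 CPM). MO1 replicate 2 did so in the median of block E (8.60 CPM), and MO2 replicate 3 in XBXL10_1g487 (64.2 CPM).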

How the results depend on the processing

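The number of members, 156, was 2372 with no level minimum, 100 with medians in place of means (75 of them members) and 96 with both morpholinos separately at 4 times, and stayed within 1.5 times under 9 other settings. Leaving out a library gave 138 to 199. The median correlation of members, 0.528, was 0.626 for the 118 with a count in all 8 morpholino libraries, 0.617 without MO2 replicates 3 and 4 and 0.458 for the IDs chosen without control replicate 1 (both chosen after seeing the data), and leaving out a library gave 0.462 to 0.589. Members called in the mean of both morpholinos, 0 as reported, were 75 with DESeq2 (all IDs 5.31%) and 1 with no filter on low counts (all IDs 0.0806%), and 0 to 44 when leaving out a library (all IDs 0% to 9.86%). The MO1 against MO2 comparison called 0 members under each alternative run, while over all IDs DESeq2 called 11, and 1 each was called with no filter, without MO2 replicate 1 and without MO2 replicate 2. Its 6 members at an unadjusted p under 0.05 were 18 with no filter (11.5%, all IDs 6.46%), 17 of them higher with MO2, which the choice favours. They were 2 with limma-voom (1.72%, all IDs 7.77%), 2 with only the groups compared (1.80%, all IDs 5.80%) and 1 to 33 when leaving out a library (all IDs 3.76% to 12.7%). Of IDs chosen on MO1, 72.9% were at 4 times with MO2 (all IDs 0.539%), and 86.2% without control replicate 1 (0.744%). In reverse this was 60.0% (0.515%) and 67.7% (0.661%). The shared controls raise these shares by an amount that was not measured, so they are no sign that the morpholinos agree, and leaving out the control was chosen after seeing the data. For all of these changes the cause was not tested.

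With a replicate block in the fit, the members at an unadjusted p under 0.05 were 2 between the morpholinos (1.72%, all IDs 7.05%) and 84 in the mean of both (72.4%, all IDs 19.4%), with 0 members and 0 IDs called in each. The main fit did not pair libraries by number. Deviations from the group means correlated over 0.1 in 4 of 12 pairs with the same number (from -0.346 to 0.355). For 3 of 12 libraries the closest was one of the same number. The pairs over 0.1 were those among the replicates numbered 3 (0.147 to 0.321) and control replicate 1 with MO1 replicate 1 (0.355). Whether libraries of some numbers belong together was not settled. Depth limits low members, since 0.5 CPM is few counts per library.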
